A study of Peromyscus californicus with 17 samples.

Results

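Inflammation in the lung is opened and closed by a small set of secreted proteins. Alarmins such as IL-33 and the other IL-1 family members are released by stressed barrier cells or are cleaved by the inflammasome, TNF and IL-6 carry the acute response, IL-10 and TGF-beta restrain it, and the colony stimulating factors maintain macrophages and granulocytes. The transcripts of 10 such genes were followed here: Il33, Il18 and Il1b (IL-1 family), Tnf, Il6, Il10, Il16, Tgfb1, Csf1 and Csf2. They were taken by symbol from a lung RNAseq table of 27786 genes, and all 10 were found.

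Lung RNA was sequenced from 17 males of *Peromyscus californicus*, a monogamous deer mouse, of the genetically diverse IS stock and 12 to 15 months old, with 1 library per animal. Bonded males (B1 to B6, n = 6) were sampled after 4 months with a mate. Bond-disrupted males (BD1 to BD6, n = 6) were taken from the mate after 4 months and sampled 7 days later. Virgin males (V2 to V6, n = 5) were of similar age and were kept together in cages of males. Mating history and housing therefore cannot be told apart in the comparisons with virgins. Bond-disrupted males no longer lived with the mate, and the paper describes bond-disrupted animals in its serum work as housed alone. Loss of the mate and a change of housing therefore cannot be told apart in bond-disrupted minus bonded. In the study, animals of the same number in different groups were siblings, or cousins for some virgins. The labels name no transgene and no agent in any group.

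The values were deposited as FPKM (fragments per kilobase of gene, scaled to the mapped fragments of the library). In the table, however, the length used was that of another gene, and the distance to that gene grew with each column, from 1 row higher up for B1 to 17 rows for V6. The reads behind each value and the length of each gene were recovered from the digits of the table, and FPKM were recomputed with each gene's own length. All 10 cytokine genes were recovered in all 17 animals. The recovered depth was 15.4 to 34.1 per library in units of 1000000 counts. Of the low counts, 81.7% were whole numbers and 98.3% were whole numbers or fell midway between them. These counts are called reads here, although the values do not show whether reads or fragments were counted. If the midway values are single reads, every read count and depth given here would be 2 times as large, with smaller counting errors and a lower limit for a count of 0, and the FPKM would stay the same.

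Lung tissue was recognisable in every animal. The 6 matched genes of type 2 alveolar cells, among them Sftpc, summed to between 15658.7 and 33789.5 FPKM, and the 5 of type 1 alveolar cells to between 1840.7 and 3909. BD2 and BD6 had the lowest mean correlation with the other animals (r = 0.955 and 0.954, against up to 0.974) over 13006 well-covered genes. BD2 had the lowest summed level of the macrophage, neutrophil, T cell, B cell and natural killer lists, and BD6 the highest summed level of the macrophage list.

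Over 13006 well-covered genes the median SD of log2(FPKM + 1) between animals was 1.39 as deposited and 0.185 with own lengths. Il33 was deposited as 465 FPKM in BD3 and as 5.15 FPKM in BD6, a 90.4-fold range over the table, because its reads were divided by lengths between 104 and 9065 bases. With its own length of 4017 bases, Il33 ranged from 7.66 to 25.03 FPKM, a 3.27-fold range. For Csf1 the highest deposited value was 414 FPKM in V5, where 1288 reads had been divided by a length of 164 bases. Its own length of 4533 bases gave 14.97 FPKM in that animal.

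**Figure D1:**
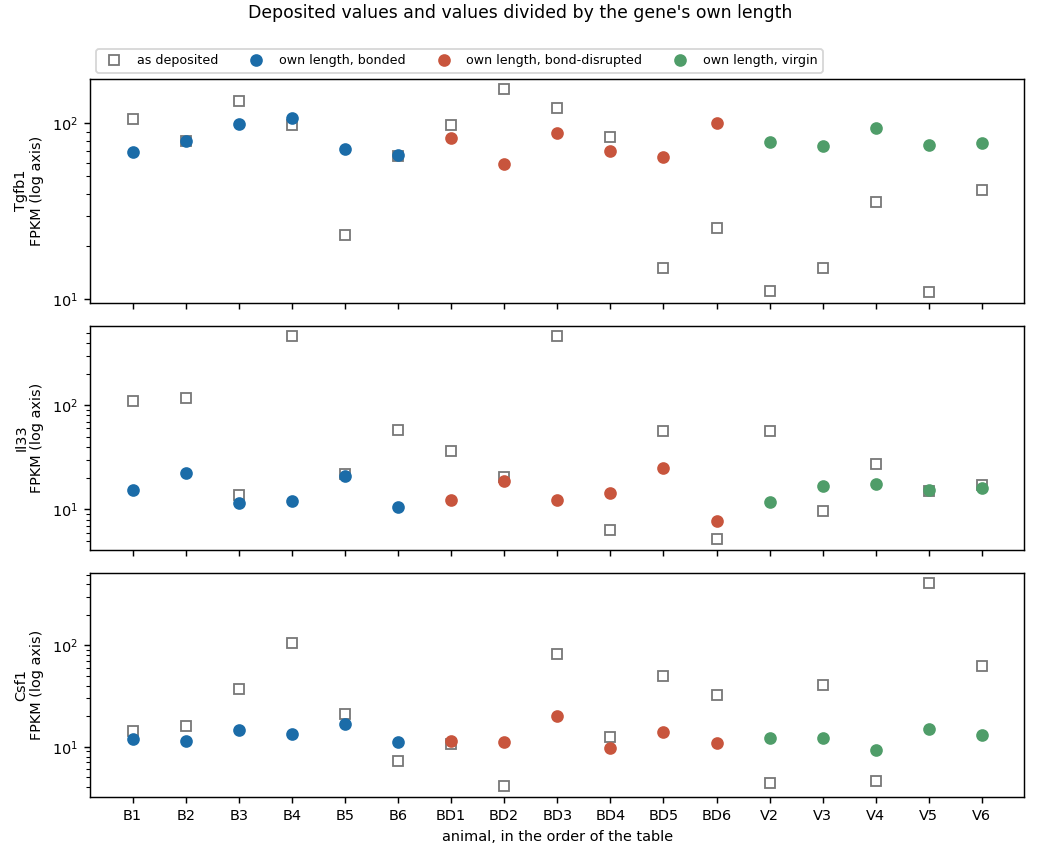
Tgfb1, Il33 and Csf1 in each of the 17 males (horizontal axis, table order), in FPKM on a log axis, as deposited (open squares) and with the gene's own length (filled circles, coloured by group). The squares of Il33 span 5.15 to 465 FPKM, whereas its circles stay between 7.66 and 25.03 FPKM.

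Tgfb1 showed how the shift falls on the groups. As deposited, Tgfb1 averaged 84.5 ± 38.4 FPKM in bonded (SD, n = 6), 83.5 ± 55.1 in bond-disrupted (n = 6) and 23.1 ± 14.8 in virgin males (n = 5). The virgins minus bonded difference was then −1.87 on the log2(FPKM + 1) scale (limma, unadjusted p = 0.00837, adjusted p = 0.339). In the virgin columns the divisors of Tgfb1 reached 10867 bases, the length settled for the neighbouring gene Lipe. With its own length of 1550 bases, the same difference was −0.02 (SE 0.15, adjusted p = 1).

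Per unit length, Tgfb1 was the most abundant of the 10 transcripts and Il10 the least. Over the 17 animals the means were 79.8 ± 13.8 FPKM for Tgfb1, 23.7 ± 5.84 for Il18, 15.4 ± 4.55 for Il33, 12.8 ± 2.69 for Csf1, 6.97 ± 1.91 for Il16, 6.05 ± 3.40 for Csf2, 5.71 ± 3.56 for Il1b, 1.54 ± 0.831 for Tnf, 1.35 ± 0.635 for Il6 and 0.955 ± 0.715 for Il10 (SD, n = 17). Tgfb1 exceeded Il18 in 17 of 17 animals, Il18 exceeded Il33 in 15, and Il1b exceeded Tnf in 17. Neighbours whose means lay closer than their SDs were Il33 and Csf1 (Il33 higher in 11 of 17), Il16 and Csf2 (Il16 higher in 12), Csf2 and Il1b (Csf2 higher in 10), Tnf and Il6 (Tnf higher in 10) and Il6 and Il10 (Il6 higher in 13). The lengths settled for Csf2, Il10 and Il6, 426, 566 and 624 bases, were the shortest of the 10, and Il16 was the longest at 5302 bases.

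The genes also differed in how much the males varied. Tgfb1 and Csf1 were the most even, with coefficients of variation of 17.3% and 21.0%. Il1b and Csf2 varied by 62.3% and 56.2%, where counting error alone would give 8.10% and 13.3%. Il10 varied by 74.8%, but its counting error alone would give 30.5%, since its reads numbered 0 to 27 per animal. Intervals and limits from counts cover counting error only.

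**Figure D2:**
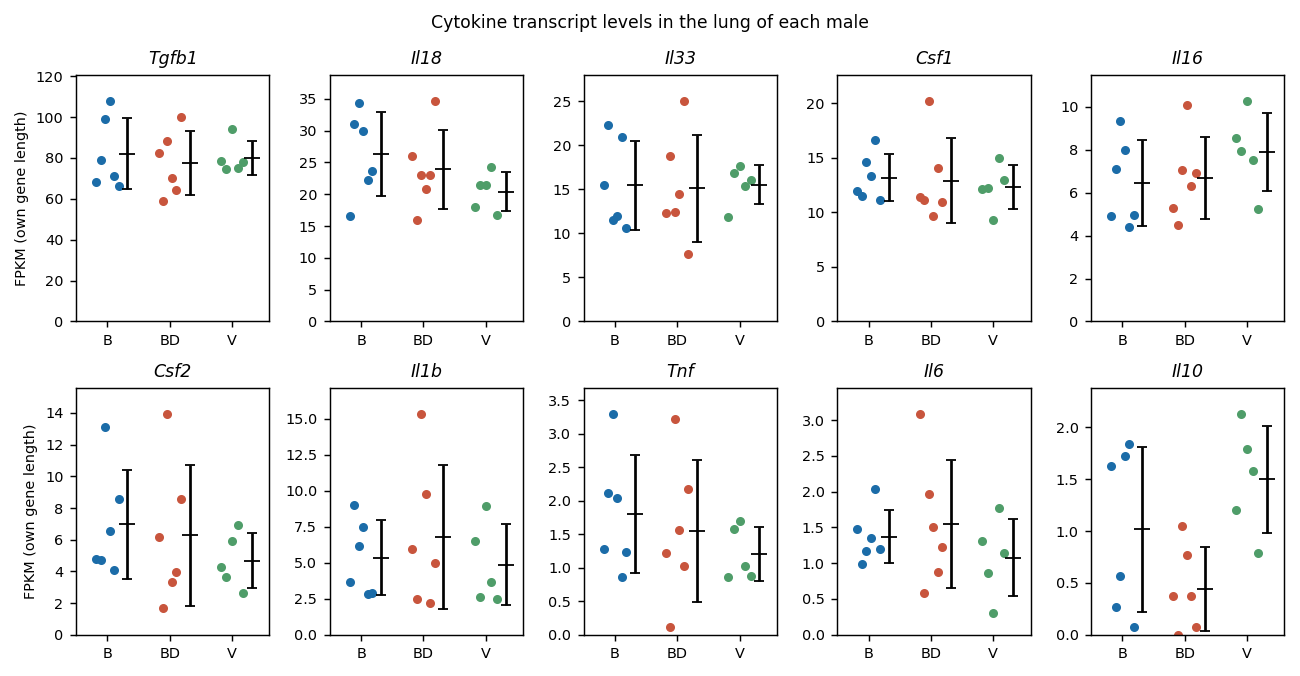
FPKM with the gene's own length for the 10 cytokine genes, 1 point per male, in bonded (B, n = 6), bond-disrupted (BD, n = 6) and virgin (V, n = 5) animals, with the mean and SD in black beside each group. The groups overlap for every gene, and in Il10 the virgins lie between 0.787 and 2.13 FPKM and the bond-disrupted males between 0 and 1.047 FPKM.

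The study asked whether bonding history leaves a mark on the lung transcriptome. None of the 10 cytokine genes was called between bonded and bond-disrupted, between bonded and virgin, or between bond-disrupted and virgin males at the study's thresholds, a 2-fold change with an adjusted p below 0.1 (limma on log2(FPKM + 1), 15748 genes). The share of all genes called was likewise 0% in each comparison, with lowest adjusted p-values of 0.538 for bond-disrupted minus bonded, 1 for virgin minus bonded and 0.953 for virgin minus bond-disrupted. At an unadjusted p under 0.05, 0 of 10 cytokine genes passed in the first comparison, where 5.8% of all genes did, 0 of 10 in the second, where 3.49% did, and 1 of 10 in the third, where 4.2% did. On recovered reads limma-voom also called 0 genes, with 1051, 579 and 741 of 17009 genes at an unadjusted p under 0.05. As deposited, the calls were 0.215%, 0.607% and 0.188% of 18602 genes in the 3 comparisons, again with 0 cytokine genes among them.

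The intervals show what the design could see. Of the 30 differences (10 genes in 3 comparisons), 24 had a 95% interval that stayed within 1 unit of log2(FPKM + 1), which is a doubling of FPKM + 1. The exceptions were Il1b in all 3 comparisons, Csf2 in bond-disrupted minus bonded and in virgin minus bonded, and Il10 in virgin minus bond-disrupted. For Tnf, Il6 and Il10, with values near 1 FPKM, this scale understates changes. On the log2 scale of reads, the limma-voom intervals of Il1b, Tnf, Il10 and Csf2 passed 1 unit in every comparison. Those of Il6 did so in both comparisons with virgins. For example, Tnf had −1.80 to 0.54 in bond-disrupted minus bonded, and Il6 had −1.43 to 0.41 in virgin minus bond-disrupted. Changes of 2-fold in these genes are therefore not excluded.

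**Figure D3:**
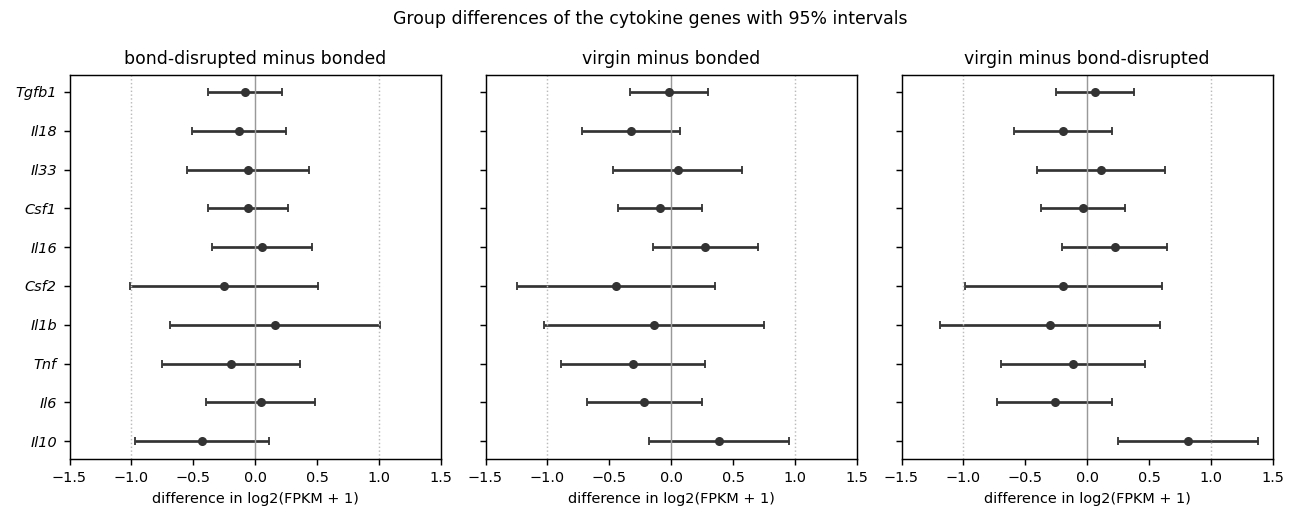
Differences between groups in log2(FPKM + 1) with 95% intervals from limma (horizontal axis) for the 10 cytokine genes (rows), 1 panel per comparison, with dotted lines at −1 and 1. The interval of Il10 in virgin minus bond-disrupted, 0.25 to 1.38, is the only one that leaves out 0.

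Il33, the alarmin that barrier and stromal cells hold in the nucleus, did not separate the groups. In bonded males it ranged from 10.6 to 22.3 FPKM with a median of 13.7, and in bond-disrupted males from 7.66 to 25.03 with a median of 13.4. In V2 to V6 it was 11.9, 16.9, 17.6, 15.4 and 16.0 FPKM. The virgins all lay inside the range of the bond-disrupted group, whose lowest male was BD6 and whose highest was BD5. The bond-disrupted minus bonded difference was −0.06 (SE 0.23, 95% interval −0.55 to 0.43, limma adjusted p = 0.982), and it was 0.10 without BD6 and −0.14 without BD2. Its receptor gene Il1rl1 was low, between 0.857 and 4.67 FPKM.

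Il18, which macrophages and epithelium store as a precursor for caspase-1, ranged from 16.5 to 34.4 FPKM in bonded males (median 26.8) and from 16.0 to 34.7 in bond-disrupted males (median 23.1). V2 to V6 had 17.97, 21.5, 21.4, 24.4 and 16.8 FPKM. The virgins lay inside the range of both other groups with the lowest mean, 20.4 ± 3.02 FPKM (SD, n = 5), and the virgin minus bonded difference was −0.32 (SE 0.19, 95% interval −0.72 to 0.07, limma unadjusted p = 0.104, adjusted p = 1). Il18r1, its receptor, averaged 19.6 ± 7.73 FPKM in bonded (n = 6), 18.4 ± 1.55 in bond-disrupted (n = 6) and 18.9 ± 1.94 in virgin males (n = 5), and Il18bp, the soluble inhibitor of IL-18, 3.89 ± 0.846, 3.34 ± 0.718 and 3.91 ± 0.556.

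Il1b, the inflammasome product that drives fever and neutrophil recruitment, had its highest and lowest values in the same group. It ranged from 2.19 to 15.3 FPKM in bond-disrupted males (median 5.48) and from 2.81 to 9.02 in bonded males (median 4.92). The virgins V2 to V6 had 6.53, 2.63, 8.95, 3.67 and 2.49 FPKM. BD3 stood above all others, and without BD3 the bond-disrupted minus bonded difference moved from 0.16 to −0.10, and without BD2 it was 0.34. With all animals its interval was wide, −0.69 to 1.01 (limma adjusted p = 0.974).

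Tnf, the early macrophage cytokine, ranged from 0.869 to 3.29 FPKM in bonded (median 1.66) and from 0.119 to 3.21 in bond-disrupted males (median 1.39). In V2 to V6 it was 0.863, 1.57, 1.70, 1.03 and 0.872 FPKM. BD2 had 4 reads of Tnf, and every other animal had at least 23. The bond-disrupted minus bonded difference was −0.19 (SE 0.26, limma adjusted p = 0.944), and 0.02 without BD2. The receptors were far more abundant than the ligand, Tnfrsf1a between 42.6 and 64.4 FPKM and Tnfrsf1b between 24.3 and 64.2.

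Il6, which signals through the shared receptor chain encoded by Il6st, rested on 4 to 46 reads per animal. It ranged from 0.987 to 2.04 FPKM in bonded (median 1.28) and from 0.582 to 3.08 in bond-disrupted males (median 1.37), and in V2 to V6 it was 1.31, 0.857, 0.310, 1.77 and 1.14 FPKM. BD1 was the highest and V4 the lowest. The virgin minus bond-disrupted difference, −0.26 (SE 0.22, limma adjusted p = 0.953), was −0.11 without BD1 and also without V4. Il6st itself lay between 35.3 and 55.9 FPKM.

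Il10, which restrains macrophages and T cells, was the only cytokine gene with an unadjusted p under 0.05. In the bond-disrupted males it was 0 to 1.047 FPKM with a median of 0.371 and 0 to 13 reads, and in the bonded males 0.0776 to 1.84 FPKM with a median of 1.098. Virgins V2 to V6 had 1.21, 2.13, 1.79, 1.58 and 0.787 FPKM, from 10 to 27 reads. BD2 had no read, which at its depth allows up to 0.241 FPKM (3 counts), and B6 and BD6 had 1 read each. The virgin and bond-disrupted groups overlapped only in that V6 lay below BD3, so that the virgin was higher in 29 of 30 pairs.

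The virgin minus bond-disrupted difference of Il10 was 0.82 (SE 0.27, 95% interval 0.25 to 1.38, limma unadjusted p = 0.00747), and a two-sided exact permutation test of this gene alone gave p = 0.00866. It failed the adjustment over all genes (adjusted p = 0.953). Without BD2 the difference was 0.72. On recovered reads limma-voom gave 2.25 (SE 0.78, adjusted p = 0.957) on the log2 scale of reads. Bonded males lay between: virgin minus bonded was 0.39 and bond-disrupted minus bonded −0.43 in log2(FPKM + 1), neither with an unadjusted p under 0.05. With the replicate number, which marks relatives, as a block, both had one. Virgin minus bonded was then 0.43 (limma unadjusted p = 0.0404, adjusted p = 0.999). Bond-disrupted minus bonded was −0.43 (limma unadjusted p = 0.0313, adjusted p = 0.869). Without B6 virgin minus bonded was 0.23. Deeper libraries tended to have lower Il10 values, with Spearman rho = −0.556 (permutation p = 0.0217, adjusted p = 0.217 over the 10 cytokine genes) and Pearson r = −0.449 (permutation p = 0.0693, adjusted p = 0.693). Without B3 and B4, the libraries farthest from the median depth, r was −0.42, and within groups it was −0.61 in bonded and 0.38 in bond-disrupted males (n = 6 each), the virgins being too few. The virgins' libraries held 19.0 to 22.4 in units of 1000000 counts, against 21.9 to 29.7 in the bond-disrupted group. Of the marker lists, the 3 natural killer genes that matched (Nkg7, Prf1 and Gzma, of 7 listed) had the highest r with Il10, 0.588 (permutation p = 0.0139, adjusted p = 0.0912) with Spearman rho = 0.471 (permutation p = 0.0586, adjusted p = 0.244), and r was 0.336 without B6 and BD2. They summed to between 2.91 and 11.3 FPKM in bonded, between 2.47 and 13.2 in bond-disrupted and between 4.83 and 14.0 in virgin males, and none was at 0. The part of depth and of these cells in the difference was not tested. The receptor gene Il10ra averaged 8.18 ± 1.81 FPKM in bonded, 7.09 ± 1.76 in bond-disrupted and 8.17 ± 2.48 in virgin males (SD, n = 6, 6 and 5).

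Il16, made as a large precursor by lymphocytes and acting through CD4, ranged from 4.40 to 9.36 FPKM in bonded (median 6.02) and from 4.51 to 10.1 in bond-disrupted males (median 6.61). V2 to V6 had 8.56, 7.94, 10.3, 7.54 and 5.25 FPKM. The virgins averaged highest, but V6 was below the median of both other groups, and the virgin minus bonded difference was 0.28 (SE 0.20, 95% interval −0.15 to 0.70, limma adjusted p = 1). As deposited, the same difference was 1.30. Cd4 varied between 1.67 and 11.3 FPKM.

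Tgfb1, the latent growth factor that limits inflammation and drives matrix deposition, was the steadiest. It ranged from 66.3 to 107.9 FPKM in bonded (median 75.3) and from 59.1 to 100.1 in bond-disrupted males (median 76.2). The virgins V2 to V6 had 78.5, 74.6, 94.3, 74.995 and 77.8 FPKM. The groups covered one another almost wholly, and the bond-disrupted minus bonded difference was −0.08 (SE 0.14, 95% interval −0.38 to 0.22, limma adjusted p = 0.955), −0.01 without BD2 and −0.16 without BD6. Of its receptor genes, Tgfbr2 lay between 49.3 and 89.9 FPKM, Tgfbr3 between 35.8 and 88.0 and Tgfbr1 between 4.73 and 7.39.

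Csf1, which keeps macrophages alive through the receptor encoded by Csf1r, ranged from 11.1 to 16.6 FPKM in bonded (median 12.6) and from 9.62 to 20.2 in bond-disrupted males (median 11.3). In V2 to V6 it was 12.1, 12.3, 9.29, 14.97 and 13.0 FPKM. BD3 was the highest and the other 16 males lay between 9.29 and 16.6 FPKM. The bond-disrupted minus bonded difference was −0.06 (SE 0.15, 95% interval −0.38 to 0.27, limma adjusted p = 0.976). It was −0.19 without BD3, −0.02 without BD2 or without BD6, and turned to 0.01 without B5 or without BD4.

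Csf2, the growth factor on which alveolar macrophages depend, ranged from 4.07 to 13.1 FPKM in bonded (median 5.65) and from 1.71 to 13.9 in bond-disrupted males (median 5.07). Virgins V2 to V6 had 4.28, 3.66, 5.89, 6.93 and 2.61 FPKM. B3 and BD3 stood at the top and BD2 at the bottom. The virgin minus bonded difference was −0.45 (SE 0.38, 95% interval −1.24 to 0.35, limma adjusted p = 1), −0.26 without B3 and −0.30 without V6. Csf1r and Csf2rb, the receptors, ranged from 14.6 to 71.2 and from 10.3 to 60.7 FPKM.

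Signalling partners of the cytokines were equally free of calls. Of 99 listed genes in 6 groups 88 matched and 84 were tested, and none was called in any comparison, against 0% of all genes. In bond-disrupted minus bonded the median difference was −0.01 for 18 tested genes of the IL-1 family and inflammasome, 0.04 for 9 of the TNF pathway, 0.05 for 11 of IL-6, IL-10 and IL-16 signalling, −0.002 for 22 of the TGF-beta pathway, −0.01 for 6 of the colony stimulating factors and 0.02 for 18 NF-kB and cytokine targets, beside 0.0049 for all genes. The cytokine genes themselves had medians of −0.07, −0.11 and −0.07 in bond-disrupted minus bonded, virgin minus bonded and virgin minus bond-disrupted, beside 0.0049, 0.0048 and 0.0047 for all genes.

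Lcn2, Ltbp2, Ltbp3 and Il1r1 were among the partners with an unadjusted limma p under 0.05 in some comparison. None of the tested partners passed the adjustment. In bond-disrupted minus bonded, 1 higher and 2 lower of 22 TGF-beta genes and 1 of 18 NF-kB targets had such a p. In virgin minus bonded 0 did, and in virgin minus bond-disrupted 1 each of the IL-1, TGF-beta and NF-kB lists did. Of all genes, 5.8%, 3.49% and 4.2% did, and whether the partners differ from these shares was not tested. Lcn2, the siderophore-binding lipocalin that IL-1 induces in epithelium, averaged 31.7 ± 10.7 FPKM in bond-disrupted males (n = 6), 19.0 ± 3.16 in bonded (n = 6) and 16.9 ± 4.41 in virgin males (n = 5). Its differences were 0.66 in bond-disrupted minus bonded (SE 0.20, limma unadjusted p = 0.00369, adjusted p = 0.821) and −0.84 in virgin minus bond-disrupted (SE 0.21, unadjusted p = 0.000854, adjusted p = 0.953). Bond-disrupted values spanned 19.1 to 49.5 FPKM and bonded values 14.7 to 23.4, so the groups overlapped.

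Ltbp2, a matrix protein of the family that holds latent TGF-beta, was 7.85 ± 1.85 FPKM in bond-disrupted and 10.8 ± 2.01 in bonded males (difference −0.43, SE 0.13, limma adjusted p = 0.821). Il1r1, the signalling receptor for IL-1, was 31.7 ± 7.80 FPKM in bond-disrupted and 24.3 ± 2.40 in virgin males (virgin minus bond-disrupted −0.34, SE 0.16, limma adjusted p = 0.953). Also among the genes with the 2 lowest unadjusted p-values of their lists were Traf6, Tnfrsf1b, Birc2, Tyk2, Stat3, Il34, Flt3 and Selp, with all adjusted p-values at 0.884 or above.

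While no gene was called between the groups, several cytokine genes varied together from male to male. Of 45 pairs of cytokine genes, 7 correlated over the 17 animals at an adjusted p under 0.05 (Pearson r of log2(FPKM + 1), two-sided permutation test with 100000 resamples, Benjamini-Hochberg over 45 pairs), and these joined Tnf, Csf2, Tgfb1, Il18 and Il1b. Tnf and Csf2 were the closest, with r = 0.803 (permutation p = 0.00016, adjusted p = 0.0072) and Spearman rho = 0.640 (permutation p = 0.00709, adjusted p = 0.0528). Tnf also correlated with Tgfb1 (r = 0.741, permutation p = 0.0007, adjusted p = 0.0157), Il18 (r = 0.705, permutation p = 0.00146, adjusted p = 0.0219) and Il1b (r = 0.672, permutation p = 0.00267, adjusted p = 0.0265). No pair passed 0.05 in the adjusted Spearman test.

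These relations leaned on the animals at the ends. Without BD2 and B3, the 2 animals farthest from the median of Tnf, r of Tnf with Csf2 was 0.639 and with Tgfb1 0.602. Without BD2 alone 0 of 45 pairs passed (lowest adjusted p = 0.0693, for Tnf with Csf2 at r = 0.730), without B3 3 passed, without BD6 4 passed and without BD4 11 passed. Within groups the direction held: r of Tnf with Csf2 was 0.683 in bonded and 0.915 in bond-disrupted males (n = 6 each), the virgins being too few, and with the group means removed it was 0.787. Il33 ran the other way, with r = −0.594 against Csf2 (permutation p = 0.0122, adjusted p = 0.0595) and −0.543 against Tgfb1 (permutation p = 0.0245, adjusted p = 0.0872). Il10 and Csf1 were in none of the 7 pairs.

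**Figure D4:**
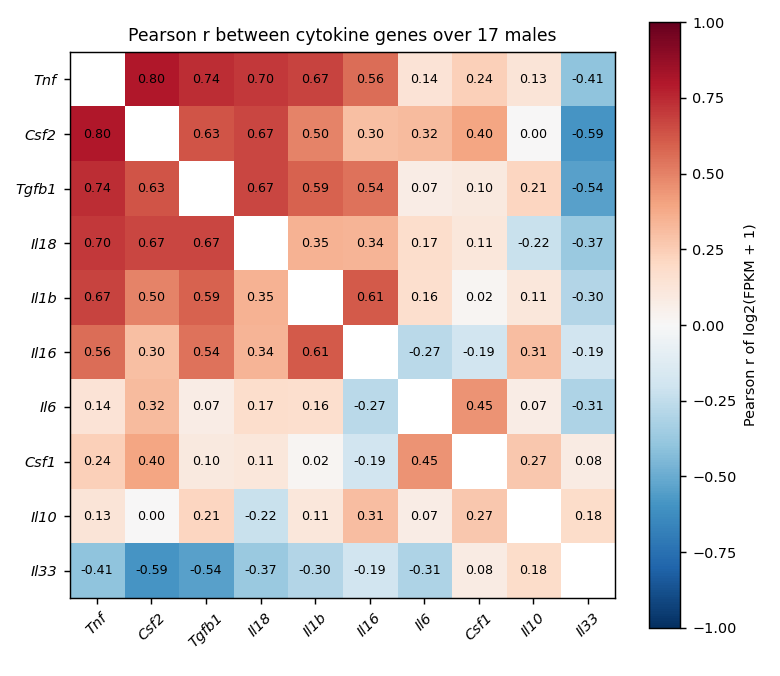
Pearson r between the 10 cytokine genes over 17 males, from log2(FPKM + 1) with own lengths, with red for positive and blue for negative values. Tnf, Csf2, Tgfb1 and Il18 form a block with r between 0.633 and 0.803, and Il33 is negative against each of them.

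In bulk tissue, fewer cells of a type and less RNA per cell cannot be told apart, so the cytokine genes were set beside the markers of leukocytes. The 10 macrophage markers (Marco, Mrc1, Adgre1, Cd68, Siglec1, Msr1, Csf1r, C1qa, C1qb and C1qc) summed to between 176 and 436 FPKM in bonded, between 111 and 522 in bond-disrupted and between 144 and 299 in virgin males, and none was at 0 in any animal. Of 150 relations between 10 cytokine genes and 15 marker lists, 9 passed an adjusted p of 0.05. The macrophage list correlated with Tnf (r = 0.823, permutation p = 4e-05, adjusted p = 0.002, rho = 0.760), Tgfb1 (r = 0.789, permutation p = 0.00021, adjusted p = 0.0078, rho = 0.728), Csf2 (r = 0.779, permutation p = 0.00026, adjusted p = 0.0078, rho = 0.637 with adjusted p = 0.0778) and Il18 (r = 0.748, permutation p = 0.0006, adjusted p = 0.015, rho = 0.718). Without the 2 animals farthest from the median of the list, BD3 and BD6, r was 0.786, 0.770, 0.698 and 0.791.

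Il16 varied with lymphocyte genes. It correlated with the mean of the 2 T cell markers that matched, Lck and Cd5 (of 7 listed), at r = 0.890 (permutation p = 1e-05, the smallest that 100000 resamples can give, adjusted p = 0.0015, rho = 0.887) and with 5 B cell markers at r = 0.825 (permutation p = 3e-05, adjusted p = 0.002, rho = 0.801). Without the 2 farthest animals r was 0.869 and 0.767, and within bonded and bond-disrupted males it was 0.970 and 0.872 for the T cell markers. Its r with the macrophage list was 0.574 (permutation p = 0.0168, adjusted p = 0.101, rho = 0.615) and 0.726 without BD3 and BD6, and the difference between the lists was not tested. The remaining relations past the threshold were Tnf and Tgfb1 with the T cell markers (r = 0.722 and 0.724) and Il18 with 6 endothelial markers (r = −0.707). Without BD2, 4 of 150 relations passed, namely Il16 with both lymphocyte lists and Tnf and Tgfb1 with the macrophage list. The macrophage list then had a permutation-based adjusted p of 0.0632 with Il18 and 0.0513 with Csf2, and without BD6 that of Il18 was 0.0514.

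**Figure D5:**
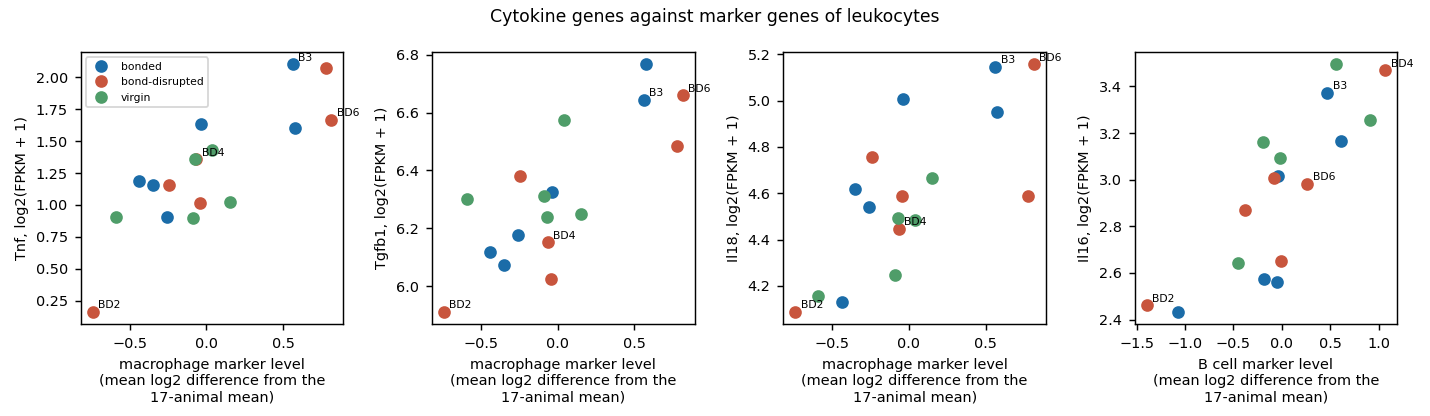
Log2(FPKM + 1) of Tnf, Tgfb1, Il18 and Il16 in each male (vertical axes) against the mean log2 level of macrophage markers or, for Il16, of B cell markers relative to the 17-animal mean (horizontal axes), coloured by group. BD2 is at the lower left of each panel, and the 3 groups are mixed along each trend.

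The genes most like each cytokine over the 17 animals, among genes averaging 50 reads or more, were chosen by Pearson r alone and are given as a description. For Il16 they were Ikzf1 (r = 0.977), Rassf5 (r = 0.962) and Traf3ip3 (r = 0.939). For Tnf they were Nfkbie (r = 0.922), which encodes an NF-kB inhibitor, Egr2 (r = 0.915) and Cotl1 (r = 0.914). For Csf2 they were Tnfsf13 (r = 0.910), Glrx and Mtap, for Tgfb1 Kcnn4 (r = 0.903) and 2 unnamed loci, and for Il18 an unnamed locus, Hpgds and Aif1 (r = 0.863 to 0.840).

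For Il1b they were Ccr2 (r = 0.860), the receptor of inflammatory monocytes, Nlrp3 (r = 0.839), the sensor of the inflammasome, and Adap1 (r = 0.832). For Il6 the closest was Tslp (r = 0.836), an epithelial cytokine. Il33, Csf1 and Il10 had weaker partners, led by Iqcb1 (r = 0.811) for Il33, Cpsf3 (r = 0.791) for Csf1 and an unnamed locus (r = 0.765) for Il10.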

How the data were processed

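Per the labels, directional libraries were made from 1 ug of total lung RNA, and the submitters' processing notes name Trim Galore 0.4.5, STAR 2.7.2, SAMtools 1.5, FastQC and featureCounts of Subread 1.5.3. The genome build is not given in the sources used here. The unit the authors deposited is FPKM for 27786 genes in 17 columns, 1 per animal, with 0 columns left over. Groups come from the sample labels, with 1 library per animal, so p-values measure the spread between animals. Except in the fit with the replicate block, the tests treat the males as unrelated, although same-numbered animals were relatives.

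The number of reads behind each FPKM was recovered as the multiple of 0.01 that a whole gene length and a depth per library allow, for a vector of 27787 lengths used with the shift described above. Depth was taken from small RNA genes, with their lengths in the RefSeq table of assembly ASM782708v3. Before any length was set to this table, 1532 of 1548 settled small RNA lengths equalled it. Those lengths rest on a depth taken from the same table, so the match is not an independent check. Between multiples of a length, the choice also weighed agreement of a gene's counts between animals. Of the lengths, 26909 were settled, 405 were not and 473 had no value above 0, and recovered reads summed to 0.971 to 1.04 of the depth. A run of small RNA copies had been settled at a wrong length, so 1577 small RNA lengths were set to RefSeq, a choice made after seeing the data.

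Own-length FPKM was tested as log2(FPKM + 1) with limma 3.58.1 in R 4.3.3, the 3 groups in one fit, for genes with at least 1 FPKM in 1 animal, two-sided, Benjamini-Hochberg adjusted, with a call needing a 2-fold change and an adjusted p below 0.1. The recovery and the fit were tested on simulated data. In the recovery, 99.99% of settled counts equalled the simulated count. For the fit, 200 genes averaging at least 2 FPKM were changed in bond-disrupted males. Against bonded males, the call rule found 53 of 200 at a 2-fold change, which is the fold minimum itself, and 187 of 200 at 4-fold. An adjusted p below 0.1 in limma alone held for 180 and 190 of them. Marker scores are means of log2(FPKM + 1) after subtracting each gene's mean; 15 marker lists and 6 pathway lists were used. Named genes are the cytokines, their receptors, the 2 genes of each list with the lowest unadjusted p, the 3 genes most like each cytokine, and any called gene where 5 or fewer were called. One gene that this rule names is not reported here. The cytokine genes and the lists were chosen with earlier results of these data known. Alternatives were other pseudocounts, filters, scalings, thresholds, blocks, limma with a trend, voom, the deposited values and leaving out each animal. No coordinates are given.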

Additional observations from a re-analysis of the deposited data

Results flagged for a closer look

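Of 30 groups of values (10 cytokine genes in 3 groups of males), 1 held an animal that stood far from the rest of its group. Tgfb1 was 94.3 FPKM in V4, with the next virgin at 78.5 FPKM, a gap of 0.803 of the whole range in the group. Chance gives such a gap in about 1 of 20 groups. The differences of Tgfb1 were not called with or without V4.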

How the results depend on the processing

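No cytokine gene was called under any alternative. At the 2-fold minimum, the count of all genes called, 0 in each comparison, changed with the deposited values, which gave 40 genes for bond-disrupted minus bonded, 113 for virgin minus bonded and 35 for virgin minus bond-disrupted, and with leaving out animals, which gave 0 to 1 gene in the first 2 comparisons and 0 in the third. The 1 gene was LOC128094431, called without B4 in bond-disrupted minus bonded (−1.01, limma adjusted p = 0.0685) and virgin minus bonded (−1.21, adjusted p = 0.0121). With no fold minimum, the fit without small RNA lengths from RefSeq called 1, 2 and 1 genes in the 3 comparisons, namely Ppp2r3c in bond-disrupted minus bonded (−0.79, limma adjusted p = 0.0001) and virgin minus bonded (−0.96), and Brms1l in virgin minus bonded (−0.78) and virgin minus bond-disrupted (−0.91). These genes, chosen after their values were seen, were not called once the lengths were set. Without B6, Ripor3 was called in bond-disrupted minus bonded (−0.61, adjusted p = 0.00379). With the mean FPKM filter Il10 was not tested.

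Small differences changed sign. As deposited, Il1b (−0.29) and Il16 (−0.13) did so in bond-disrupted minus bonded, Il6 (0.0943), Il33 (−1.69) and Csf1 (0.41) in virgin minus bonded, and Il33 (−0.52), Tgfb1 (−1.63) and Csf1 (0.54) in virgin minus bond-disrupted, the lengths being those of other genes. Tnf in virgin minus bond-disrupted was 0.0805 with a pseudocount of 0.01 and 0.0536 with voom, and Il33 with the column place as a block was −0.0741 in virgin minus bonded and −0.0149 in virgin minus bond-disrupted; the cause was not tested.

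Leaving out 1 animal gave, in bond-disrupted minus bonded, −0.10 to 0.37 for Il1b, −0.11 to 0.17 for Il6, −0.36 to 0.0219 for Tnf, −0.21 to 0.10 for Il33, −0.059 to 0.157 for Il16, −0.16 to 0.00083 for Tgfb1 and −0.19 to 0.0138 for Csf1. In virgin minus bonded it gave −0.36 to 0.0166 for Il1b, −0.0381 to 0.16 for Il33 and −0.076 to 0.0668 for Tgfb1. In virgin minus bond-disrupted it gave −0.33 to 0.0533 for Tnf, −0.0509 to 0.267 for Il33, −0.00565 to 0.144 for Tgfb1, −0.10 to 0.0947 for Csf1 and −0.43 to 0.0578 for Csf2. For Il10 in that comparison it gave 0.72 to 0.93, with unadjusted p from 0.00369 to 0.0225 and adjusted p from 0.662 to 1. Over the other alternatives the Il10 difference was 0.70 to 2.72. Several of these used another scale (other pseudocounts, log2 of reads or deposited values), so their sizes cannot be compared directly. Their unadjusted limma p ran from 0.0007 to 0.142, the highest with the deposited values, and adjusted p from 0.859 to 0.995.

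The animals' numbers mark relatives in the study, and deviations from the group means correlated above 0.1 in 5 of 6 same-numbered pairs of bonded with bond-disrupted males (r from 0.0589 to 0.459, above 0 in all 6), 3 of 5 of bonded with virgin and 0 of 5 of bond-disrupted with virgin males (lowest r of all 16 −0.405), so not every pair passed, and 8 of 17 animals were most like an animal of their own number in another group. With the replicate block, the counts of calls stayed at 0, and Il10 was 0.86 in virgin minus bond-disrupted (unadjusted p = 0.0007, adjusted p = 0.984 in limma).

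The 7 correlated pairs of cytokine genes became 11 with group means removed, 0 with the deposited values and 0 to 11 on leaving out 1 animal, and the 9 relations with marker lists became 4 to 13 on leaving out 1 animal; these alternatives, and the fit without small RNA lengths from RefSeq, were chosen after seeing the data. Depth limits Il10 and Il6 most.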
